A study of Homo sapiens with 6 samples.

Results

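PAEP, IGFBP1 and STC1 are 3 genes for secreted proteins that NCI-H460 cells, a line grown from a human large cell carcinoma of the lung, transcribe at well measured levels. They were taken by symbol from the table of values per gene and library, as 3 of its 52775 genes. They were chosen by their FPKM in these same libraries, where all 3 were higher with one CPT1 guide, sg2, than with the other, sg1, and STC1 was also among the clearer differences between sg1 and the control. Their levels are therefore given as a description, and their results in the fit of that comparison are part of how they were chosen, not a test of it.

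PAEP encodes glycodelin, a lipocalin that the glands of the secretory endometrium and decidua release under progesterone. IGFBP1 encodes a binding protein that holds insulin-like growth factors in the circulation. It is made by the liver and by decidual stromal cells, and insulin lowers its transcription. STC1 encodes stanniocalcin-1, a hormone first known from fish as a regulator of calcium, which acts locally in mammals and binds and inhibits the protease PAPP-A. PAPP-A in turn cleaves some IGF binding proteins, IGFBP4 among them, and so releases the growth factors that they hold.

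The study set cells with a guide against CPT1, labelled CPT1 knockdown (sg2 or sg1), against cells with a nontargeting guide (sgNTG), labelled wild type, with 2 libraries in each of the 3 groups. CPT1 names the enzymes that let long-chain fatty acids into mitochondria. All groups, sgNTG included, were infected with a lentiviral vector for KRAB-dSpCas9, a dead Cas9 with a repressor domain, and puromycin at 2 μg/ml was applied from 48 h after infection onwards. The labels say neither which CPT1 gene each guide binds nor whether the libraries of a group are separate cultures, so every spread given here may be technical and p-values measure only the spread between these libraries. The CPT1 genes themselves were not analysed here, so these values do not show whether either guide lowered its target.

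Values are FPKM, fragments per kilobase of transcript scaled to the mapped fragments of the library, so levels can be compared between genes. The absolute depth is unknown. The commonest low value among single-exon genes of 1 fixed length gave relative depths of 0.853 to 1.0 of the deepest library, with both ends of that range in sgNTG. That value was shared by only 6 to 14 genes per library, so the depths are rough estimates. Of 6 epithelial markers 3 were listed. The keratins KRT18 (87.4 to 102 FPKM over the 6 libraries) and KRT19 (140.5 to 179 FPKM) were abundant, while the epithelial cadherin CDH1 did not exceed 0.105 FPKM. Of 3 leukocyte markers 1 was listed, CD68, at 21.5 to 26.5 FPKM. The lung lineage markers NKX2-1, SFTPB, SFTPA1 and SCGB1A1 summed to at most 0.106 FPKM in any library. Of 5 listed hepatocyte markers none averaged 1 FPKM, and of the 4 endometrial secretory markers SCGB2A2 and SCGB1D2 were listed at 0 throughout. The progesterone receptor PGR measured 0.145 to 0.196 FPKM. Of the decidual stroma markers the other one listed was LUM, a stromal matrix gene, at 44.6 to 49.7 FPKM.

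PAEP measured 54.1 and 53.0 FPKM in the sg2 libraries, 32.2 and 30.2 FPKM in the sg1 libraries, and 40.2 and 35.6 FPKM in the sgNTG libraries. The sg2 libraries were the highest and the sg1 libraries the lowest, with no overlap between any groups. The group means were 53.5 ± 0.800 FPKM with sg2, 31.2 ± 1.44 FPKM with sg1 and 37.9 ± 3.28 FPKM with sgNTG (SD, n = 2 each). Over all libraries PAEP averaged 40.9 FPKM, which put it at rank 857 of the 8887 tested genes, those averaging 1 FPKM or more.

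IGFBP1 measured 16.3 and 15.8 FPKM with sg2, 9.28 and 9.77 FPKM with sg1, and 15.8 and 13.9 FPKM with sgNTG. The sg1 libraries stood apart below the other 4, and the lower sg2 library (15.77 FPKM) lay just above the higher sgNTG library (15.76 FPKM). After median-of-ratios scaling these libraries changed places (15.82 FPKM in the lower sg2 library and 15.88 FPKM in the higher sgNTG library), so sg2 and sgNTG are not separated for IGFBP1. The group means were 16.02 ± 0.352 FPKM with sg2, 9.52 ± 0.344 FPKM with sg1 and 14.8 ± 1.30 FPKM with sgNTG (SD, n = 2 each). IGFBP1 was the lowest of the 3 genes, at rank 2509 of 8887.

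STC1 measured 332 and 334 FPKM with sg2, 237 and 241 FPKM with sg1, and 281 and 287 FPKM with sgNTG. The groups lay far apart against the spread within them, with sg2 highest and sg1 lowest. The group means were 333 ± 1.29 FPKM with sg2, 239 ± 2.53 FPKM with sg1 and 284 ± 4.54 FPKM with sgNTG (SD, n = 2 each). STC1 stood at rank 106 of the 8887 genes, among the most abundant transcripts of the line. In bulk RNA fewer cells that make a transcript and less transcript per cell cannot be told apart.

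**Figure D1:**
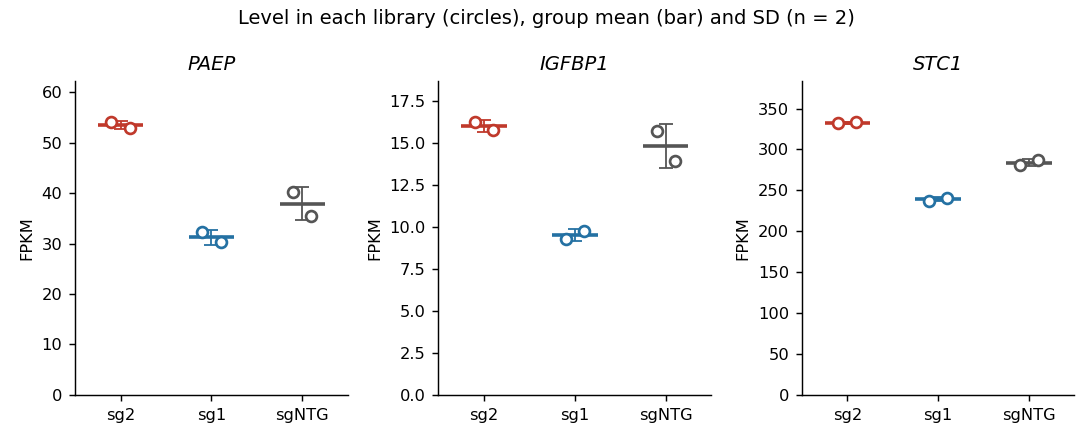
FPKM of PAEP, IGFBP1 and STC1 in the sg2, sg1 and sgNTG libraries, with each library as a circle, the group mean as a bar and the SD of 2 libraries as whiskers. The sg2 libraries are highest and the sg1 libraries lowest in each panel; for IGFBP1 the sg2 and sgNTG libraries meet, and their order turns with median-of-ratios scaling.

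The genes lie on separate chromosomes. In build hg38, as annotated by GENCODE 29, PAEP spans 135561756 to 135566955 of chromosome 9 and IGFBP1 spans 45888357 to 45893668 of chromosome 7, both on the plus strand. Their longest annotated transcripts differ in length, with 990 nt in 7 exons for PAEP, 1653 nt in 4 exons for IGFBP1 and 3883 nt in 4 exons for STC1. The values are per gene and do not separate the 9 annotated transcripts of PAEP.

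PAEP sits in a lipocalin cluster, and its neighbour LCN1, which encodes tear lipocalin, was also expressed. LCN1 ends 35.2 kb upstream of PAEP on the same strand. It measured 149 and 151 FPKM with sg2, 153 and 143 FPKM with sg1, and 144 and 131 FPKM with sgNTG, more than PAEP in every library. Its sg2 and sg1 libraries overlapped (log2 difference 0.01, SE 0.0548, limma adjusted p = 0.931). OBP2A, an odorant binding lipocalin that lies between them, measured at most 0.0582 FPKM, and the pseudogene PAEPP1 on the far side of PAEP was listed at 0 in all libraries. PAEP was chosen for its difference between the guides, so unlike values in PAEP and LCN1 are in part built in. The upstream sequences of both expressed lipocalin genes are shown as a description, and any link to these values was not tested. They run from 250 to 11 bases before the RefSeq start (build GRCh38.p14, plus strand, 5′ to 3′), at chr9:135561506-135561745 for PAEP and chr9:135521190-135521429 for LCN1. Capitals mark matches to the AP-1 motif TGANTCA and the GC box GGGCGG on either strand.
PAEP: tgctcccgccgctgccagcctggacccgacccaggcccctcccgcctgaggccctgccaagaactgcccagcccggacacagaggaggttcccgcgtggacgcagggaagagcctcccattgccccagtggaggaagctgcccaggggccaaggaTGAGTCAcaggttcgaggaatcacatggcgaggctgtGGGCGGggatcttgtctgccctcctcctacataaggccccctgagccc
LCN1: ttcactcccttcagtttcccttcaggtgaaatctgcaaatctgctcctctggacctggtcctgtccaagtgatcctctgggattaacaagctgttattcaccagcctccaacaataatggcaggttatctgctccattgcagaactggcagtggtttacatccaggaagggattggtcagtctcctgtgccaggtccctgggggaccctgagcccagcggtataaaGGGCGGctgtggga

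The PAEP window held 1 AP-1 match, which starts 95 bases before the start site, a motif that 6.43% of the 35116 RefSeq promoter windows of this length hold. It held 1 GC box 58 bases before the start, a motif found in 41.4% of windows, and 1 E-box CANNTG, found in 60.6%. The LCN1 window held no AP-1 match, 1 GC box, 2 E-boxes and the TATA box TATAAA 30 bases before the start, which 10.6% of windows hold. The matches did not overlap each other. In the PAEP window the letters of the TATA box, the cyclic AMP element TGACGTCA (1.57% of windows) and the FOXO core GTAAACA (2.85%) were not found on either strand. Nor were the steroid receptor half-site TGTNCT (34.5%) and ACGTG (17.7%), a form of the hypoxia response core. The form GCGTG, which the printed PAEP sequence holds, was not part of the search. G and C made up 67.5% of the PAEP window and 52.9% of the LCN1 window, against a median of 57.9% over all windows. These matches describe letters only. Of the 3 genes, PAEP had an entry in the promoter table.

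STC1 spans 23841915 to 23854807 on the minus strand of chromosome 8. Around IGFBP1 and STC1 no measured neighbour averaged 1 FPKM. Of 10 annotated genes within 100 kb of IGFBP1, 8 were listed; IGFBP3, which lies 18.6 kb away, was not analysed here. All 4 annotated genes within 100 kb of STC1 were listed. Around PAEP 4 of 9 listed neighbours did so, namely LCN1, the phosphatase regulator PPP1R26, the mitochondrial ribosomal protein MRPS2 and the antisense RNA AL161452.1. None of these 4 was called between the guides in the limma fit, with MRPS2 nearest (log2 difference -0.15, adjusted p = 0.0796). MRPS2 and AL161452.1 overlap on opposite strands, and without a stated strand setting their reads cannot be told apart.

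All comparisons came from 1 limma fit of log2(FPKM + 1) over the 8887 genes, a scale that understates the change of low genes. Between the CPT1 guides PAEP was 1.71-fold higher with sg2 than with sg1 in FPKM, IGFBP1 1.68-fold and STC1 1.39-fold. On the log2(FPKM + 1) scale the differences were 0.76 (SE 0.0669) for PAEP, 0.69 (SE 0.0718) for IGFBP1 and 0.48 (SE 0.0277) for STC1. They ranked 23rd, 30th and 102nd from the top among the 8887 differences between the guides. Over all tested genes 1.29% passed the adjusted threshold of 0.05 in this comparison (0.518% higher and 0.776% lower with sg2). The 3 genes are among them by choice, and nothing is read from that.

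Set against sgNTG, the genes divided this difference unevenly. For PAEP the larger share lay with sg2, whose log2 difference from sgNTG was 0.49 (SE 0.0669), against -0.27 (SE 0.0669) for sg1. IGFBP1 showed the reverse, with 0.11 (SE 0.0718) for sg2 and -0.59 (SE 0.0718) for sg1. STC1 was nearly symmetric, with 0.23 (SE 0.0277) for sg2 and -0.25 (SE 0.0277) for sg1. Expressed as the place of the sgNTG mean on the way from sg1 to sg2 on this log2 scale, sgNTG stood at 35.4% for PAEP, 52.2% for STC1 and 84.8% for IGFBP1. The comparisons of sg2 and sg1 with sgNTG share the sgNTG libraries.

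None of the 3 genes passed the threshold against sgNTG with either guide (limma adjusted p from 0.105 to 0.689), where 0.0225% of tested genes passed with sg2 and 0.0113% with sg1. These p-values carry no independent weight, since the genes were chosen on libraries that enter them, and for STC1 with sg1 on this very comparison. At an unadjusted p under 0.05 PAEP and STC1 passed with both guides and IGFBP1 with sg1 only, against 9.61% of tested genes with sg2 and 9.92% with sg1. Averaged over both guides, the log2 differences from sgNTG were 0.11 (SE 0.0580) for PAEP, -0.24 (SE 0.0622) for IGFBP1 and -0.01 (SE 0.0240) for STC1, none of which passed (limma adjusted p from 0.631 to 0.967), where 0.0113% of tested genes passed. IGFBP1 alone of the 3 lay under an unadjusted p of 0.05 there, as did 6.3% of tested genes. The values against sgNTG moved with the sgNTG library used. Without sgNTG replicate 1 the log2 difference of IGFBP1 with sg2 was 0.19, and without sgNTG replicate 2 it was 0.022. The same omissions gave PAEP -0.18 and -0.35 with sg1, and for the mean of both guides PAEP 0.20 and 0.025, IGFBP1 -0.16 and -0.32 and STC1 -0.027 and 0.0058. The sgNTG library estimated as shallower, replicate 1, held more PAEP and IGFBP1 and slightly less STC1 than replicate 2, and the part of depth in this was not tested.

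**Figure D2:**
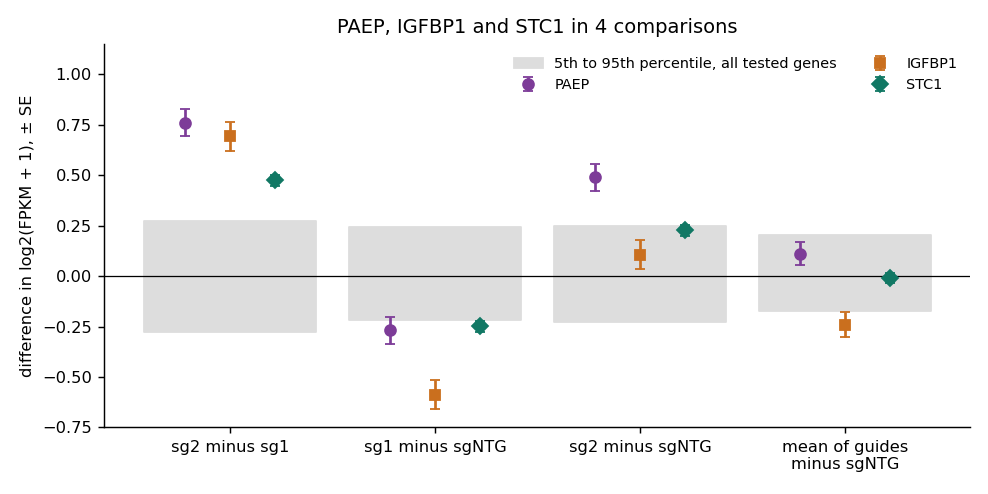
Difference in log2(FPKM + 1) of PAEP, IGFBP1 and STC1 in 4 comparisons, as points with the SE of the limma fit, over grey boxes that span the 5th to the 95th percentile of the 8887 tested genes. All 3 genes lie above the grey box between the guides (0.48 to 0.76), and IGFBP1 lies far below 0 with sg1 and near 0 with sg2.

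The order of the libraries, with both sg2 libraries above both sgNTG libraries and these above both sg1 libraries, was held by all 3 genes as deposited and by 377 of the 8887 tested genes, which is 4.24%. The mirror order, with sg1 highest, was held by 367 genes, which is 4.13%. The order follows in part from the choice of the genes. Among all tested genes 24.4% had both sg2 libraries above both sg1 libraries, 22.3% had sg2 above sgNTG and 18.9% had sg1 below sgNTG. STC1 exceeded PAEP by 6.13 to 8.08 times in FPKM over the 6 libraries, and STC1 exceeded IGFBP1 by 17.8 to 25.6 times. The ratio of PAEP to IGFBP1 was 3.33 and 3.36 with sg2, 3.48 and 3.09 with sg1, and 2.55 and 2.55 with sgNTG. It was higher in the 4 CPT1 libraries than in the sgNTG libraries, and was not tested since all of its values come from chosen genes.

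The levels of other transcripts that mark the cells are described by group, without a test. KRT19 measured 143 and 140.5 FPKM with sg2, 179 and 169 FPKM with sg1, and 155 and 154 FPKM with sgNTG. This is the opposite order to that of the 3 genes, held by 4.13% of tested genes. KRT18 measured 90.5 and 87.4 FPKM with sg2, 97.6 and 101.5 FPKM with sg1, and 89.9 and 88.2 FPKM with sgNTG. Its sg2 and sgNTG libraries overlapped. The summed level of the 3 epithelial markers that were listed was 228 to 234 FPKM with sg2, 271 to 277 FPKM with sg1 and 242 to 245 FPKM with sgNTG. Of 5 decidual stroma markers 2 were listed, LUM and PGR. LUM measured 49.7 and 49.6 FPKM with sg2, 45.5 and 46.8 FPKM with sg1, and 47.1 and 44.6 FPKM with sgNTG. It was highest with sg2 as for the 3 genes, but its sg1 and sgNTG libraries overlapped. PGR, well under 1 FPKM, was highest with sgNTG (0.175 and 0.190 FPKM with sg2, 0.170 and 0.145 FPKM with sg1, 0.196 and 0.194 FPKM with sgNTG). The collagen COL3A1 measured 10.1 and 9.85 FPKM with sg2, 12.6 and 13.0 FPKM with sg1, and 9.40 FPKM in both sgNTG libraries, while the other fibroblast marker listed, COL1A2, was at most 0.00869 FPKM. Their part in the results was not tested.

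The genes whose pattern over the 6 libraries was most like that of each gene were found by the root mean square difference between log2(FPKM + 1) values, each centred on its own mean, and no test applies to genes picked in this way. Nearest to PAEP were the hyaluronan-binding protein CEMIP (0.0493), ABI3BP, a matrix-associated protein (0.0554), ENSG00000270681, which the table lists with no symbol (0.0654), the interleukin-33 receptor IL1RL1 (0.0861) and the calcium-binding S100A9 (0.0972), against a median of 0.333 over all genes. ABI3BP measured 1.73 and 1.80 FPKM with sg2, 0.852 and 0.702 FPKM with sg1, and 1.13 and 0.950 FPKM with sgNTG. Its groups stood in the order of those of PAEP, and at its low level the pseudocount of 1 shrinks its differences on the log2 scale. Nearest to IGFBP1 were HSD3B7, a steroid dehydrogenase of bile acid synthesis (0.102), the Y RNA pseudogene RNY1P13, whose reads may be shared with near-identical copies (0.111), the chromatin regulator ANKRD11 (0.112), the membrane protein EMP1 (0.115) and the noncoding RNA MIR181A2HG (0.118), against a median of 0.326. These genes were each farther from IGFBP1 than any of the 5 above was from PAEP. HSD3B7 measured 4.84 and 4.52 FPKM with sg2, 3.10 and 2.94 FPKM with sg1, and 4.54 and 3.93 FPKM with sgNTG, with sg1 alone standing apart as for IGFBP1.

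STC1 had the closest matches. They were the transmembrane glycoprotein CDCP1 (0.0157), the PAPP-A gene PAPPA (0.0221), the protease inhibitor TFPI2 (0.0251), the cysteine-making enzyme CTH (0.0302) and the insulin receptor-related receptor INSRR (0.0304), against a median of 0.216. CDCP1 measured 46.0 and 47.0 FPKM with sg2, 33.3 and 34.0 FPKM with sg1, and 40.3 and 40.7 FPKM with sgNTG. TFPI2, the most abundant of these 5, measured 1620 and 1611 FPKM with sg2, 1190 and 1221 FPKM with sg1, and 1371 and 1396 FPKM with sgNTG. CTH measured 67.8 and 65.5 FPKM with sg2, 49.4 and 49.1 FPKM with sg1, and 58.5 and 59.5 FPKM with sgNTG. In each of these genes the groups did not overlap and stood in the order seen for STC1. This follows from how these genes were picked. The 3 chosen genes were less like each other than like these, since STC1 ranked 26th of 8886 genes in likeness to PAEP, IGFBP1 ranked 56th, and STC1 ranked 28th in likeness to IGFBP1. The lists depend on the scale. With a pseudocount of 0.1 in place of 1, an alternative added after the data were seen, 1 of 5 genes was kept for PAEP, 1 of 5 for IGFBP1 and 4 of 5 for STC1.

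**Figure D3:**
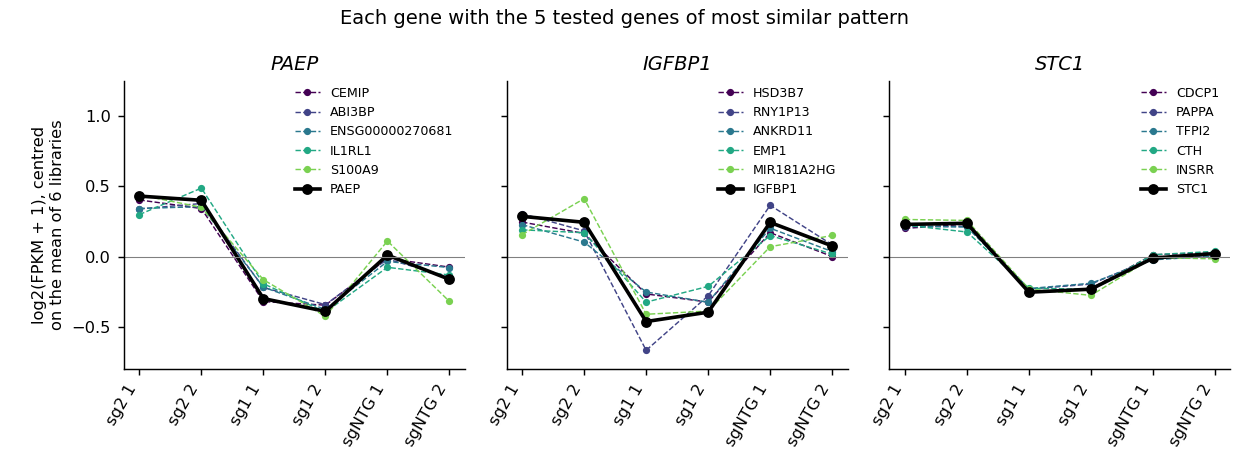
log2(FPKM + 1) of PAEP, IGFBP1 and STC1 (black) and of the 5 tested genes nearest to each (coloured), centred on the mean of the 6 libraries, by group and replicate. Lines join libraries only to keep genes apart; the curves around STC1 lie almost on it, and those around IGFBP1 are spread more widely.

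IGFBP1 acts in the IGF system, and the other measured genes of that system were examined as a list of 17, of which 13 were listed and 10 tested. The list, like the others below, was drawn up with earlier results known. The ligands were nearly silent, with IGF1 at no more than 0.0274 FPKM and IGF2 between 0.0181 and 0.124 FPKM. The receptor IGF1R measured 13.6 to 14.3 FPKM and the insulin receptor INSR 1.66 to 2.01 FPKM. Among the binding proteins IGFBP6 was highest (54.1 to 61.2 FPKM), followed by IGFBP4 (26.3 to 32.9 FPKM), IGFBP1 (9.28 to 16.3 FPKM), IGFBP7 (3.24 to 4.45 FPKM) and IGFBP5 (2.05 to 2.95 FPKM). The ranges of neighbours in this order did not overlap. IGFBP2, IGFBP3 and STC2 were not analysed here.

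PAPPA was the 1 gene of this list that passed between the guides, and none passed as lower with sg2. It measured 28.71 and 28.72 FPKM with sg2, 20.8 and 21.4 FPKM with sg1, and 24.4 and 24.7 FPKM with sgNTG. It was thus higher with sg2 than with sg1 (log2 difference 0.43, SE 0.0436, limma adjusted p = 0.0214, both sg2 libraries above both sg1 libraries). Over the alternative settings its adjusted p ranged from 0.0108 to 0.152, and the call was lost without any 1 of the 6 libraries. PAPPA2, the related protease, measured 5.79 to 6.24 FPKM with overlapping groups. IGFBP4, a substrate of PAPP-A, measured 32.9 and 32.0 FPKM with sg2, 30.8 and 30.2 FPKM with sg1, and 27.7 and 26.3 FPKM with sgNTG. Both guides lay above sgNTG for IGFBP4, without passing (limma adjusted p = 0.241 with sg2 relative to sgNTG and 0.409 between the guides). The list's median difference between the guides was 0.059 on the log2 scale, against 0.0016 over all tested genes.

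**Figure D4:**
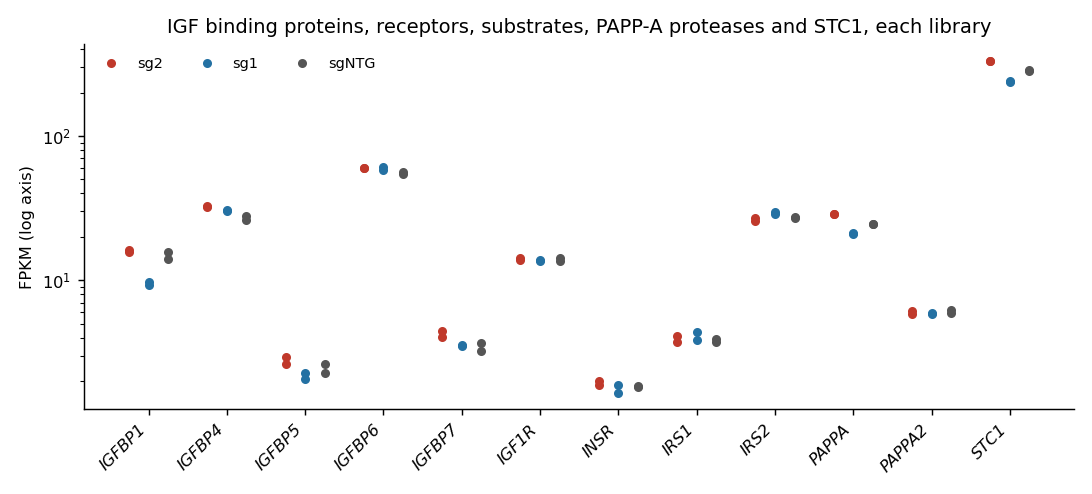
FPKM on a log axis of IGFBP1, the other measured binding proteins, IGF1R, INSR, their substrates IRS1 and IRS2, the PAPP-A proteases and STC1, with each library as a point coloured by group. IGFBP1, PAPPA and STC1 show the sg2 points above the sg1 points, while those of IGF1R, IRS1 and PAPPA2 lie close together or overlap. For IRS2 the sg2 points lie below the sg1 points.

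Genes of decidua and secretory endometrium did not pass between the guides. Of 26 such genes 18 were listed and 12 tested, and limma called none, with 2 higher and 2 lower at an unadjusted p under 0.05, a level that 17% of all tested genes (1514 of 8887) passed between the guides. The list's median was 0.062 on the log2 scale. The scavenger receptor SCARA5 measured 166 and 162 FPKM with sg2, 179.9 and 180.4 FPKM with sg1, and 176 and 177 FPKM with sgNTG (sg2 minus sg1 log2 difference -0.14, limma adjusted p = 0.0987). The gap junction protein GJA1 measured 135 and 128 FPKM with sg2, 113 and 112 FPKM with sg1, and 119 and 127 FPKM with sgNTG (0.23, limma adjusted p = 0.0775). The transcription factor CEBPB measured 52.9 to 59.3 FPKM with overlapping groups. PRL, HAND2, WNT4 and 5 other genes of this list were not analysed here. Of 18 other lipocalins 10 were listed, 4 of them at 0 in every library, and LCN1 alone was tested.

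Lists of targets of pathways known to act on IGFBP1 or STC1 in other cells also held no call between the guides. The lists do not hold every target, and the stress-induced GDF15 was counted in another list, below, where it was called. The counts at an unadjusted p under 0.05 stand against the same 17% of all tested genes. Of 22 hypoxia targets 9 were listed, and all 9 were tested. Among them limma called none, with 1 higher and none lower at an unadjusted p under 0.05, and their median was 0.042. The glycolytic enzyme PGK1 measured 312 and 302 FPKM with sg2, 289.3 and 289.8 FPKM with sg1, and 299 and 297 FPKM with sgNTG (0.08, limma adjusted p = 0.223). BNIP3, a mitophagy receptor, measured 185 to 195 FPKM with overlapping groups, and P4HA1, a collagen prolyl hydroxylase subunit, measured 105 to 114 FPKM (-0.06, limma adjusted p = 0.450). Of 17 integrated stress response genes 10 were listed and 8 tested. Among these 8 limma called none, with none higher and 3 lower at an unadjusted p under 0.05, and their median was -0.085. The central transcription factor of that response, ATF4, measured 210.4 and 193 FPKM with sg2, 227 and 234 FPKM with sg1, and 216 and 202 FPKM with sgNTG (-0.19, limma adjusted p = 0.157). The stress phosphatase regulator PPP1R15A measured 61.3 to 68.9 FPKM and the cystine transporter SLC7A11 45.9 to 53.1 FPKM. With ATF4 these were the 3 lower genes, none of which was called (limma adjusted p from 0.157 to 0.270). Of 17 FOXO and glucocorticoid targets 12 were listed and 9 tested. Among these 9 limma called none, with 1 higher and 2 lower at an unadjusted p under 0.05, and their median was -0.057. FOXO1, the transcription factor through which insulin acts on IGFBP1, measured 5.39 to 6.31 FPKM, the phosphatase DUSP1 154 to 175 FPKM, the transcriptional coregulator CITED2 50.8 to 57.6 FPKM and the insulin receptor substrate IRS2 25.9 to 29.7 FPKM. DUSP1 and IRS2 were the 2 lower genes, and the transcriptional repressor BCL6 was the higher 1. None of them was called (limma adjusted p from 0.192 to 0.214).

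Among 35 other secreted hormones and growth factors 27 were listed and 14 tested, and 2 were higher and 2 lower with sg2 than with sg1. The EGF receptor ligand AREG measured 139 and 142 FPKM with sg2, 117 and 118 FPKM with sg1, and 135 and 138 FPKM with sgNTG (sg2 minus sg1 log2 difference 0.26, SE 0.0317, limma adjusted p = 0.0338). The granin SCG2 measured 34.98 and 37.4 FPKM with sg2, 28.8 and 29.4 FPKM with sg1, and 31.4 and 31.5 FPKM with sgNTG (0.31, SE 0.0482, limma adjusted p = 0.0490). AREG, like IGFBP1, had its sgNTG libraries near those of sg2. The neuropeptide NMB measured 1.87 and 1.73 FPKM with sg2, 3.30 and 3.03 FPKM with sg1, and 2.997 and 2.99 FPKM with sgNTG, and was lower with sg2 (-0.57, SE 0.0885, limma adjusted p = 0.0479). GDF15, a stress-induced cytokine of the TGF-beta family, measured 3.68 and 4.06 FPKM with sg2, 6.18 and 6.004 FPKM with sg1, and 4.22 and 3.67 FPKM with sgNTG, and was lower with sg2 (-0.54, SE 0.0871, limma adjusted p = 0.0496). GDF15 passed in 0 of 13 alternative settings (adjusted p from 0.0507 to 0.221 in limma). Among the alternatives AREG passed in 4 of 14 (0.0176 to 0.206), SCG2 in 2 of 14 (0.0275 to 0.210) and NMB in 3 of 13 (0.0443 to 0.211). The calls in this list lay in both directions. The list's median was 0.12. Follistatin, encoded by FST and the most abundant of them, measured 277 to 291 FPKM with overlapping groups, and the chorionic gonadotropin genes CGB3, CGB5 and CGB8, near-identical copies between which reads may be split, were listed at 0.

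Over all 7 lists 61 distinct genes were tested, and 5 were called between the guides (8.20%), against 1.29% of all tested genes. Some of these genes were known to differ when the lists were made, so the share is not read as a property of the lists. Each of the 5 calls was lost when any 1 library was left out. Against sgNTG limma called none of the 61 with sg2, with sg1 or with both guides, and 12 with sg2, 12 with sg1 and 9 with both lay under an unadjusted p of 0.05, against 9.61%, 9.92% and 6.3% of all tested genes in the same order.

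**Figure D5:**
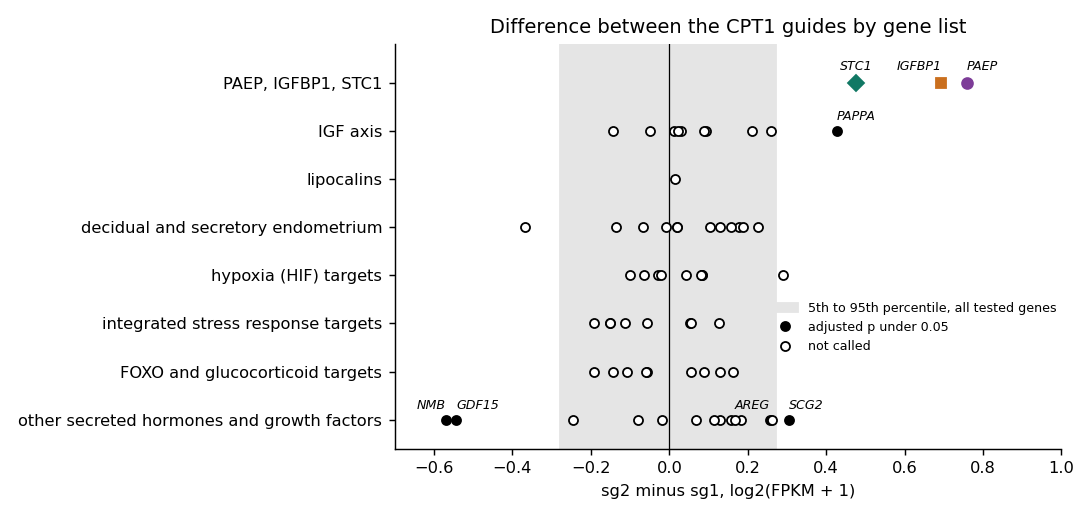
Difference between sg2 and sg1 in log2(FPKM + 1) for each tested gene of the 7 lists, with PAEP, IGFBP1 and STC1 in the top row; filled circles passed the adjusted threshold of 0.05, and the grey band spans the 5th to the 95th percentile of all tested genes. The 3 chosen genes lie to the right of the band, the lists scatter on both sides of 0, and the 5 called genes are named.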

How the data were processed

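RNA was extracted with TRIzol and libraries were made from bead-captured mRNA, per the labels' protocols. STAR, StringTie and build hg38 are named in the submitters' processing notes; versions, annotation and strandedness are not stated there. One table of gene FPKM values, deposited by the authors, has 6 columns, each matched to a sample by name. Of its 52807 rows, 32 repeated a row of the same name with identical values and were kept once.

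PAEP, IGFBP1 and STC1, the gene lists and the alternatives were chosen with earlier results of these data known. The 8887 genes averaging 1 FPKM or more were fitted as log2(FPKM + 1) in limma 3.58.1 (R 4.3.3) with 1 mean per group, a variance trend and all 6 libraries. Tests were two-sided, with Benjamini-Hochberg adjusted p over all tested genes and a threshold of 0.05. The fit was also run on simulated data with independent normal noise at the fitted spread. Such data meet the assumptions of the fit, so that run does not bear on how the calls depend on settings or libraries. Alternatives were a pseudocount of 0.1, other filters and scalings, no trend, a replicate block, 4 libraries only and each library left out.

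Named genes were the 3 genes, list members called in any comparison or otherwise the 3 of highest level, all IGFBP genes, the 5 most similar patterns and neighbours within 100 kb. FOXO1, FST and some marker, ligand, receptor and hormone genes were named after their values were seen. Upstream sequences are from RefSeq (GRCh38.p14), positions from GENCODE 29.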

Additional observations from a re-analysis of the deposited data

Results flagged for a closer look

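PAEP, IGFBP1 and STC1 each had both sg2 libraries above and both sg1 libraries below both sgNTG libraries. As deposited, the guides labelled CPT1 thus lay on opposite sides of the control, for IGFBP1 by a narrow margin. That order was held by 4.24% of the 8887 tested genes and the mirror order by 4.13%. It follows in part from the choice of the genes. The labels do not say whether the guides bind the same CPT1 gene. The log2 difference of sg2 minus sg1 was 0.76 for PAEP, 0.69 for IGFBP1 and 0.48 for STC1. The difference was not tested independently, because the limma fit of this comparison, which all 3 genes passed, bore on their choice. For IGFBP1 the sg2 and sgNTG libraries overlapped after median-of-ratios scaling.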

How the results depend on the processing

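With 2 libraries per group, the number of genes called between sg2 and sg1 (115) depended on the fit: it was 0 when low genes were kept, 217 with a filter of 5 FPKM, 0 without a variance trend, 26 with only the 4 libraries compared and 4 to 26 when 1 library was left out. With the replicate block it was 5. The labels do not say that replicate numbers mark a shared culture or day, and libraries of the same number did not deviate together (correlations of -0.0276 to 0.0603), so the block is not read as a pairing. Of the 5 list genes called between the guides, the count was 3 with median-of-ratios scaling and 0 without a filter, without a trend, with the replicate block, with the 4 libraries or with any 1 library left out (0 to 0). Against sgNTG the 1 call with sg1, 2 with sg2 and 1 with both guides became 0 without a filter, without a trend and with the replicate block, and with sg2 also 0 after quantile normalization, after median-of-ratios scaling or in 4 libraries. Leaving out 1 library gave 1 to 6 calls with sg1, 0 to 5 with sg2 and 0 to 7 with both. The cause was not tested.

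The differences between the guides for PAEP (0.71 to 0.80), IGFBP1 (0.66 to 0.73) and STC1 (0.46 to 0.49) kept their direction when any library was left out. Quantile normalization gave STC1 log2 differences of 0.56 between the guides, -0.28 with sg1 and 0.28 with sg2. Without 1 library, differences from sgNTG ranged with sg1 from -0.35 to -0.18 for PAEP, -0.67 to -0.50 for IGFBP1 and -0.26 to -0.23 for STC1. With sg2 they ranged from 0.40 to 0.58 for PAEP, 0.022 to 0.19 for IGFBP1 and 0.21 to 0.24 for STC1. For both guides the ranges were 0.025 to 0.20 for PAEP, -0.32 to -0.16 for IGFBP1 and -0.027 to 0.0058 for STC1.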
